A study of Mus musculus with 10 samples.

Results

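Interferon-stimulated genes are the genes that cells switch on when type I or type II interferon binds its receptor. A set of 35 such genes with established roles was listed, and 33 of them had a probe set annotated with that gene alone, out of 18194 genes so measured. Genes whose reading exceeded the median of its array on 2 or more of the 10 arrays were tested, 11993 in all, and 32 of the 33 were among them. Isg15 and Ifi44 are not analysed here. Where a gene has several probe sets, the brightest on average stands for it, and levels are log2 intensities. The arrays measured cultured lines of transformed mouse leukemia stem cells, all grown with stem cell factor. RH-RAS lines carry DNMT3A with the R882H mutation together with NRAS with the G12D mutation. Lines 1 and 3 of them were treated for 4 days with 1 µM SGC0946, an inhibitor of the histone H3 lysine 79 methyltransferase Dot1l (2 arrays). The others are 3 lines transformed by NUP98-JARID1A, a nucleoporin fused to a histone demethylase, 1 line transformed by MLL-AF9, and 4 RH-RAS lines without inhibitor. Each array is 1 culture of 1 line, the MLL-AF9 group is a single line, and the labels name no vehicle for untreated cultures, no age of the source animals and no scan dates. They state independent derivation for the RH-RAS lines alone, so that p-values with NUP98-JARID1A measure only the spread between these samples.

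Type I interferon binds the receptor formed by Ifnar1 and Ifnar2, whose kinases Jak1 and Tyk2 phosphorylate STAT proteins. A complex that holds STAT2 and IRF9 then binds the interferon-stimulated response element in the promoters of its targets, and interferon gamma acts through a different site. Many targets sense or destroy viral RNA and DNA, and several of them also act in the pathway itself, such as the sensors that lead to more interferon and the protease Usp18 that dampens the receptor. In blood cells some are expressed without infection, at levels that depend on the cell type.

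The promoter sequences are shown because several of these genes moved together. RefSeq promoters of assembly GRCm38.p6, from 250 bases before to 50 after a gene's start, were at hand for 24 of the 33 genes. The core of the response element, GAAA, any 2 bases and GAAA again on either strand, was found in the promoters of 13 of the 24 (54.2%), and in 3.99% of 27025 genes in the table. The first 4 sequences below belong to the genes among the 6 that rose with SGC0946 that hold such a match. Oas1a, Ifit1 and Gbp2, examples with a match among the genes called higher in NUP98-JARID1A lines, and Stat2, which read lower in the MLL-AF9 line, follow. Gbp2 entered that test through NUP98-JARID1A arrays alone. Of the 17 genes in the table called higher in NUP98-JARID1A lines, 11 held a match, and Ifit2 and Xaf1 were among those that did not. Capitals mark the matches, and sequences run 5′ to 3′ along the gene's strand.
Ifih1 (chr2:62646206-62646233, minus strand): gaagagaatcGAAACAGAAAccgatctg
Gbp3 (chr3:142559979-142560034, plus strand): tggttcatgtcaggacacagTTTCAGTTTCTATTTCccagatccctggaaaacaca
Bst2 (chr8:71537567-71537622, minus strand): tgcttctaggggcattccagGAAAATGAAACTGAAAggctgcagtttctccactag
Trim30a (chr7:104465200-104465249, minus strand): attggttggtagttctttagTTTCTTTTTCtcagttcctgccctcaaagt
Oas1a (chr5:120907520-120907555, minus strand): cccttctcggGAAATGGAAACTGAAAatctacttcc
Ifit1 (chr19:34640765-34640833, plus strand): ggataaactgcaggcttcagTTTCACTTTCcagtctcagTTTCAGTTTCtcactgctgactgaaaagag
Gbp2 (chr3:142620584-142620633, plus strand): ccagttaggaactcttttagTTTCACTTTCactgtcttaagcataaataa
Stat2 (chr10:128270256-128270305, plus strand): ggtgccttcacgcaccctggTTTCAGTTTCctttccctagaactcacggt
In Ifih1 the match began 33 bases after the annotated start, and in Bst2 overlapping matches began 130 bases before it. The other 2 genes that rose with SGC0946, Samhd1 and Ifi35, had no such match in this window, but each held the gamma-activated site TTCNNNGAA, through which interferon gamma acts, as TTCGGAGAA in Samhd1 and TTCACAGAA in Ifi35. That site was found in 7 of the 24 genes (29.2%), and in 9.55% of all genes in the table. A match is a description of the letters and not a measured binding site.

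With SGC0946, 6 of the 32 tested genes rose (18.8%), none fell, and 26 did not pass, where limma called 6.84% of all 11993 genes tested as risen and 5.12% as fallen. The calls are at a Benjamini-Hochberg adjusted p below 0.05 over all genes tested, and at an unadjusted p below 0.05 the counts were 17 up and 0 down. The 6 were the RNA sensor Ifih1, the ubiquitin ligase Trim30a, the GTPase Gbp3, the nucleotide hydrolase Samhd1, the virus tether Bst2 and Ifi35. The change had the same sign in line 1 and line 3 for all 33 genes, upward in 27 of them and downward in 6, where 42.8% of all genes tested were higher in both lines. Both treated arrays lay above all 4 untreated arrays for 26 genes, against 26.6% of all genes tested. The median change of the 33 genes was 0.72 on the log2 scale, against 0.02 over all genes tested. In bulk RNA, more cells of a type and more RNA of a gene per cell cannot be told apart.

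The number of calls depends on which arrays give the spread. It was 21 of 32 (65.6%) in a fit of the 6 RH-RAS arrays alone, where 12.6% of all genes rose and the 6 genes above were among the 21. The widest spreads of these genes lay among the NUP98-JARID1A lines, which enter the fit of 10 arrays, with an SD of 1.71 for Ifi27l2a, 1.46 for Oas1a and 1.28 for Oasl1, against 0.49, 0.22 and 0.10 in the 4 untreated RH-RAS lines. It was 11 with array medians subtracted and 14 with all 4 untreated lines as control, where 7.88% and 9.46% of all genes rose. With the line as a block, since the same lines were treated and untreated, 3 passed, Ifih1, Bst2 and Samhd1, where 3.86% of all genes rose. Without treated line 1, treated line 3, untreated line 1 or untreated line 3, none passed, and 12 to 14 genes had an unadjusted p below 0.05, while limma then called 0.158% to 0.784% of all genes as risen.

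**Figure D1:**
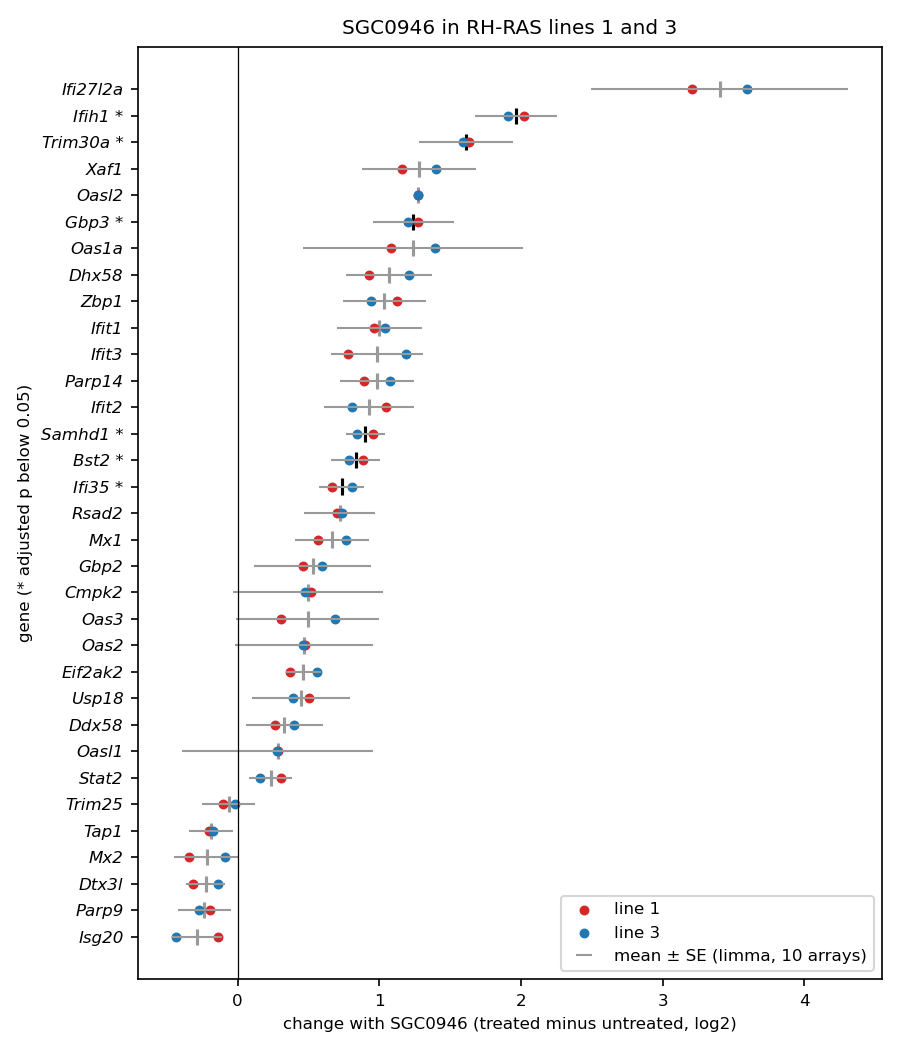
Change of each of the 33 genes with SGC0946, as treated minus untreated log2 intensity, in line 1 (red) and line 3 (blue); ticks and bars give the mean and SE of the limma fit of 10 arrays, black ticks and stars mark an adjusted p below 0.05, and Oasl2, which was not tested, has no SE. Points of line 1 and line 3 lie on the same side of 0 for every gene, and Ifi27l2a stands furthest right at 3.21 and 3.60.

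In NUP98-JARID1A lines 21 of the 32 tested genes were higher than in untreated RH-RAS lines (65.6%), 1 was lower and 10 did not pass, where limma called 32.5% of all genes tested as higher and 18.5% as lower. The 3 NUP98-JARID1A arrays lay above all 4 untreated RH-RAS arrays for 22 of the 33 genes and below them for 2, against 34.8% and 20.1% of all genes tested. Gbp2, Ifit1 and Oas3 are among the 21 but lay below the array median on all 4 untreated RH-RAS arrays. They entered the test through other groups, in which they were higher, so their calls add little to the count. The median difference of the 33 genes was 0.89, against 0.10 over all genes tested. The RH-RAS arrays are shared by both comparisons, so the gene lists of the 2 are not independent of each other.

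**Figure D2:**
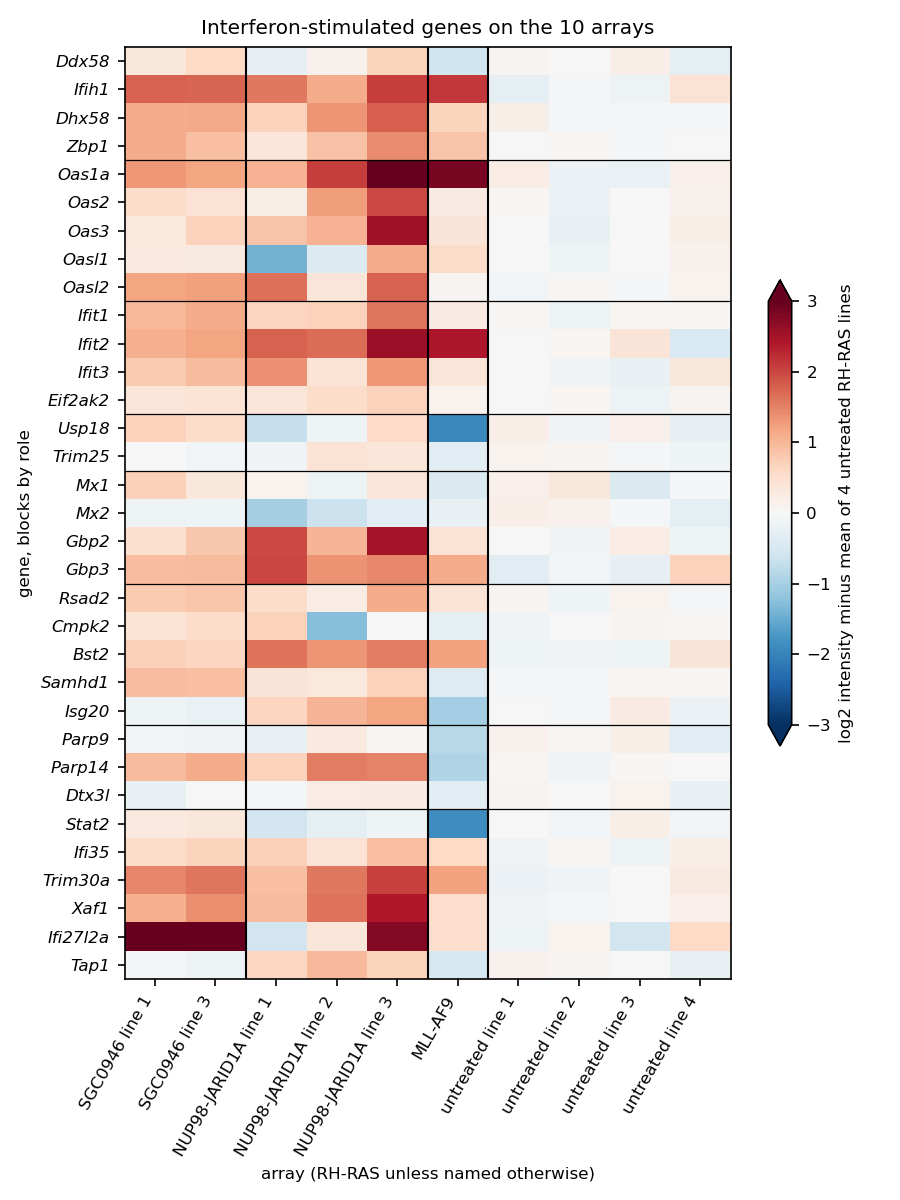
Log2 intensity of the 33 genes on the 10 arrays, minus the mean of the 4 untreated RH-RAS lines, with genes in blocks by role and arrays in columns; the colour scale ends at 3 on either side. Both treated arrays and NUP98-JARID1A lines 1 to 3 are red for most genes. The MLL-AF9 line is red for Oas1a, Ifit2 and Ifih1 and blue for Usp18 and Stat2.

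Among the nucleic acid sensors, Ifih1 and Ddx58 detect viral RNA and signal through Mavs, Dhx58 tunes both, and Zbp1 binds Z-form nucleic acid and can trigger cell death. Of these 4, 1 rose with SGC0946 and 3 were higher in NUP98-JARID1A lines. Ifih1 read 9.05 and 9.04 in treated lines 1 and 3, 8.87, 8.39 and 9.36 in NUP98-JARID1A lines 1 to 3, 9.40 in the MLL-AF9 line, and 7.03, 7.26, 7.13 and 7.72 in untreated RH-RAS lines 1 to 4. All treated and NUP98-JARID1A arrays and the MLL-AF9 array were above every untreated RH-RAS array. The change with SGC0946 was 1.97 ± 0.29 in log2 units (SE, n = 2 arrays in each group, adjusted p = 0.00860), or 3.90-fold, and the difference for NUP98-JARID1A was 1.59 ± 0.25 (SE, n = 3 against 4 arrays, adjusted p = 0.00166). Dhx58 read 8.02 and 8.05 in treated lines 1 and 3, 7.60, 8.22 and 8.69 in NUP98-JARID1A lines 1 to 3, 7.58 in the MLL-AF9 line, and 7.09, 6.84, 6.85 and 6.86 in untreated RH-RAS lines 1 to 4. Zbp1 read 7.26 and 7.06 in treated lines 1 and 3, 6.50, 7.04 and 7.58 in NUP98-JARID1A lines 1 to 3, 6.99 in the MLL-AF9 line, and 6.13, 6.20, 6.11 and 6.15 in untreated RH-RAS lines 1 to 4. Neither gene overlapped between treated and untreated arrays, but Dhx58 at 1.07 ± 0.30 (adjusted p = 0.0645) and Zbp1 at 1.04 ± 0.29 (adjusted p = 0.0643) did not pass for SGC0946, while both were higher in NUP98-JARID1A lines, by 1.26 ± 0.24 (adjusted p = 0.00351) and 0.89 ± 0.22 (adjusted p = 0.0127). Ddx58, the partner sensor of Ifih1, was at 0.33 ± 0.27 (adjusted p = 0.512) with SGC0946 and at 0.18 ± 0.22 (adjusted p = 0.520) in NUP98-JARID1A lines, and passed neither test.

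The OAS enzymes make oligoadenylates that switch on an RNase, and Oasl1 and Oasl2 are relatives of them. Of the 4 tested, none rose with SGC0946 and 3 were higher in NUP98-JARID1A lines. Oas1a read 8.26 and 8.16 in treated lines 1 and 3, 8.02, 9.04 and 10.90 in NUP98-JARID1A lines 1 to 3, 9.81 in the MLL-AF9 line, and 7.18, 6.79, 6.77 and 7.12 in untreated RH-RAS lines 1 to 4. It was higher in NUP98-JARID1A lines by 2.35 ± 0.59 (adjusted p = 0.0131), or 5.11-fold, and line 3 was 2.38 above the mean of lines 1 and 2. With SGC0946 it was higher in both lines, by 1.08 and 1.39, and did not pass at 1.24 ± 0.78 (adjusted p = 0.374), whose SE holds the spread of the NUP98-JARID1A lines (SD 1.46), and in the fit of the 6 RH-RAS arrays it passed (adjusted p = 0.00546). Oas2 read 7.49 and 7.40 in treated lines 1 and 3, 7.12, 8.20 and 8.94 in NUP98-JARID1A lines 1 to 3, 7.19 in the MLL-AF9 line, and 7.02, 6.77, 6.93 and 7.09 in untreated RH-RAS lines 1 to 4. Oas3 read 5.84 and 6.22 in treated lines 1 and 3, 6.37, 6.56 and 8.05 in NUP98-JARID1A lines 1 to 3, 5.90 in the MLL-AF9 line, and 5.54, 5.30, 5.53 and 5.69 in untreated RH-RAS lines 1 to 4. Both were highest in NUP98-JARID1A line 3 and differed from RH-RAS by 1.13 ± 0.37 (adjusted p = 0.0374) and 1.48 ± 0.38 (adjusted p = 0.0140). Oas3 lay below the array median on all 4 untreated RH-RAS arrays and on no other, so it entered the test through the other groups. The call for Oas2 was lost without any 1 of the 4 RH-RAS arrays or of NUP98-JARID1A lines 2 and 3, with adjusted p between 0.0619 and 0.0911. Oasl1 read 6.78 and 6.75 in treated lines 1 and 3, 5.06, 6.06 and 7.60 in NUP98-JARID1A lines 1 to 3, 7.04 in the MLL-AF9 line, and 6.50, 6.35, 6.47 and 6.60 in untreated RH-RAS lines 1 to 4. NUP98-JARID1A lines lay on both sides of the RH-RAS lines and the difference did not pass (−0.24 ± 0.51, adjusted p = 0.728), nor did the change with SGC0946 (0.28 ± 0.67, adjusted p = 0.857). Oasl2 lay below the array median on all 10 arrays and was not tested. Its intensity was 5.10 and 5.14 in treated lines 1 and 3, against 3.83 and 3.87 in the same lines untreated.

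Ifit1, Ifit2 and Ifit3 bind viral RNA and block its translation, and Eif2ak2, also known as PKR, phosphorylates the initiation factor eIF2alpha when it binds double-stranded RNA. None of the 4 passed with SGC0946, and all 4 were higher in NUP98-JARID1A lines. Ifit2 read 7.32 and 7.45 in treated lines 1 and 3, 8.02, 7.93 and 8.82 in NUP98-JARID1A lines 1 to 3, 8.68 in the MLL-AF9 line, and 6.27, 6.32, 6.64 and 5.79 in untreated RH-RAS lines 1 to 4. It was 4.01-fold higher in NUP98-JARID1A lines (2.00 ± 0.27, adjusted p = 0.000766) and 0.93 ± 0.32 higher with SGC0946, which did not pass (adjusted p = 0.107). Ifit1 read 5.88 and 5.98 in treated lines 1 and 3, 5.53, 5.58 and 6.49 in NUP98-JARID1A lines 1 to 3, 5.13 in the MLL-AF9 line, and 4.92, 4.73, 4.94 and 4.92 in untreated RH-RAS lines 1 to 4. Ifit3 read 6.25 and 6.42 in treated lines 1 and 3, 6.83, 5.86 and 6.77 in NUP98-JARID1A lines 1 to 3, 5.83 in the MLL-AF9 line, and 5.47, 5.35, 5.23 and 5.79 in untreated RH-RAS lines 1 to 4. Ifit1 was above the array median on 3 arrays alone, both treated ones and NUP98-JARID1A line 3. Ifit1 and Ifit3 were higher in NUP98-JARID1A lines by 0.99 ± 0.23 (adjusted p = 0.00928) and 1.03 ± 0.25 (adjusted p = 0.0120), and at 1.00 ± 0.30 (adjusted p = 0.0742) and 0.98 ± 0.32 (adjusted p = 0.0966) with SGC0946. Eif2ak2 read 8.24 and 8.28 in treated lines 1 and 3, 8.23, 8.43 and 8.56 in NUP98-JARID1A lines 1 to 3, 7.97 in the MLL-AF9 line, and 7.88, 7.94, 7.73 and 7.96 in untreated RH-RAS lines 1 to 4. It was higher in NUP98-JARID1A lines by 0.53 ± 0.10 (adjusted p = 0.00451), a call that was lost when all its probe sets were averaged (0.15, adjusted p = 0.358), and at 0.46 ± 0.12 (adjusted p = 0.0528) with SGC0946. The other Eif2ak2 probe sets were at 0.84 and 0.79 with SGC0946, and at −0.35 and 0.28 in NUP98-JARID1A lines. With all probe sets averaged, 1 of these 4 genes passed for SGC0946.

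Usp18 removes ISG15 from proteins and restrains the interferon receptor, and Trim25 is a ubiquitin ligase that activates RNA sensing. Usp18 read 8.64 and 8.49 in treated lines 1 and 3, 7.25, 7.81 and 8.52 in NUP98-JARID1A lines 1 to 3, 6.02 in the MLL-AF9 line, and 8.14, 7.83, 8.10 and 7.71 in untreated RH-RAS lines 1 to 4. Treated arrays were above the untreated ones, at 0.45 ± 0.34 (adjusted p = 0.475), which did not pass, NUP98-JARID1A lines lay on both sides of RH-RAS, and the MLL-AF9 line was 3.79-fold lower than the RH-RAS mean. Trim25 read 11.08 and 10.99 in treated lines 1 and 3, 10.97, 11.50 and 11.43 in NUP98-JARID1A lines 1 to 3, 10.76 in the MLL-AF9 line, and 11.18, 11.15, 11.01 and 10.94 in untreated RH-RAS lines 1 to 4. It was at −0.06 ± 0.19 (adjusted p = 0.886) with SGC0946 and 0.23 ± 0.14 (adjusted p = 0.222) in NUP98-JARID1A lines, where its readings overlapped, and passed neither test.

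The dynamin-like GTPases Mx1 and Mx2 and the guanylate-binding proteins Gbp2 and Gbp3 act against viruses and intracellular microbes. Of these 4, 1 rose with SGC0946, and in NUP98-JARID1A lines 2 were higher and 1 was lower. Gbp3 read 8.47 and 8.49 in treated lines 1 and 3, 9.56, 8.89 and 8.98 in NUP98-JARID1A lines 1 to 3, 8.65 in the MLL-AF9 line, and 7.19, 7.46, 7.29 and 8.23 in untreated RH-RAS lines 1 to 4. It rose with SGC0946 by 1.24 ± 0.29 (adjusted p = 0.0330), or 2.36-fold, a call lost when blocked by line (adjusted p = 0.0506), and was higher in NUP98-JARID1A lines by 1.60 ± 0.28 (adjusted p = 0.00250). Untreated line 4 stood nearest to the treated arrays, 0.91 above lines 1 to 3. Gbp2 read 5.22 and 5.57 in treated lines 1 and 3, 6.73, 5.76 and 7.25 in NUP98-JARID1A lines 1 to 3, 5.19 in the MLL-AF9 line, and 4.76, 4.64, 4.97 and 4.62 in untreated RH-RAS lines 1 to 4. It was 3.56-fold higher in NUP98-JARID1A lines (1.83 ± 0.32, adjusted p = 0.00244) but it was above the array median on NUP98-JARID1A arrays 1 and 3 only, so it entered the test through the group where it was high. Mx2 read 6.51 and 6.51 in treated lines 1 and 3, 5.66, 6.01 and 6.33 in NUP98-JARID1A lines 1 to 3, 6.42 in the MLL-AF9 line, and 6.86, 6.77, 6.60 and 6.37 in untreated RH-RAS lines 1 to 4. It was the only member called lower in NUP98-JARID1A lines, at −0.65 ± 0.18 (adjusted p = 0.0194), and the call was lost without untreated RH-RAS line 1 or line 2 (adjusted p = 0.0512 and 0.0528). Mx1 was at 0.67 ± 0.26 (adjusted p = 0.154) with SGC0946 and 0.10 ± 0.20 (adjusted p = 0.714) in NUP98-JARID1A lines and passed neither test.

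Among other antiviral effectors, Samhd1 degrades deoxynucleotides needed for reverse transcription, Bst2 holds budding viruses at the cell surface, Rsad2 makes an RNA chain terminator, Cmpk2 is a mitochondrial nucleotide kinase and Isg20 is an exonuclease. Of these 5, 2 rose with SGC0946 and 4 were higher in NUP98-JARID1A lines. Samhd1 read 10.53 and 10.49 in treated lines 1 and 3, 9.97, 9.91 and 10.30 in NUP98-JARID1A lines 1 to 3, 9.20 in the MLL-AF9 line, and 9.57, 9.54, 9.64 and 9.64 in untreated RH-RAS lines 1 to 4. Bst2 read 9.36 and 9.28 in treated lines 1 and 3, 10.27, 9.97 and 10.18 in NUP98-JARID1A lines 1 to 3, 9.83 in the MLL-AF9 line, and 8.48, 8.54, 8.50 and 9.03 in untreated RH-RAS lines 1 to 4. With SGC0946 Samhd1 rose by 0.90 ± 0.14 (adjusted p = 0.0100), or 1.87-fold, and Bst2 by 0.83 ± 0.17 (adjusted p = 0.0238), or 1.78-fold. In NUP98-JARID1A lines the order was the other way round, with Bst2 higher by 1.51 ± 0.16 (adjusted p = 0.000275) and Samhd1 by 0.46 ± 0.11 (adjusted p = 0.00912). Another Samhd1 probe set with a similar level was at 0.73 with SGC0946 and at −0.05 in NUP98-JARID1A lines. Isg20 read 7.39 and 7.32 in treated lines 1 and 3, 8.18, 8.54 and 8.71 in NUP98-JARID1A lines 1 to 3, 6.51 in the MLL-AF9 line, and 7.53, 7.46, 7.76 and 7.35 in untreated RH-RAS lines 1 to 4. It was higher in NUP98-JARID1A lines by 0.95 ± 0.15 (adjusted p = 0.00168), at −1.02 in the MLL-AF9 line, and at −0.29 ± 0.18 (adjusted p = 0.358) with SGC0946. Rsad2 read 7.17 and 7.24 in treated lines 1 and 3, 6.94, 6.62 and 7.51 in NUP98-JARID1A lines 1 to 3, 6.81 in the MLL-AF9 line, and 6.47, 6.26, 6.50 and 6.36 in untreated RH-RAS lines 1 to 4. It was higher in NUP98-JARID1A lines by 0.62 ± 0.20 (adjusted p = 0.0315), and the call was lost without any 1 of the RH-RAS arrays or NUP98-JARID1A line 1 (adjusted p = 0.0502 to 0.0783). With SGC0946 Rsad2 was at 0.72 ± 0.25 (adjusted p = 0.111) and Cmpk2 at 0.50 ± 0.53 (adjusted p = 0.626). Cmpk2 read 7.02 and 7.17 in treated lines 1 and 3, 7.30, 5.33 and 6.59 in NUP98-JARID1A lines 1 to 3, 6.34 in the MLL-AF9 line, and 6.50, 6.61, 6.69 and 6.66 in untreated RH-RAS lines 1 to 4. NUP98-JARID1A lines lay above, below and within the RH-RAS range and the difference did not pass (−0.21 ± 0.40, adjusted p = 0.696).

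Parp9, Parp14 and the ubiquitin ligase Dtx3l belong to a group of ADP-ribosylation proteins, in which Parp9 and Dtx3l form a complex. None of the 3 passed with SGC0946, and Parp14 was higher in NUP98-JARID1A lines. Parp14 read 8.90 and 9.06 in treated lines 1 and 3, 8.65, 9.49 and 9.44 in NUP98-JARID1A lines 1 to 3, 7.04 in the MLL-AF9 line, and 8.01, 7.84, 7.98 and 7.95 in untreated RH-RAS lines 1 to 4. It was higher in NUP98-JARID1A lines by 1.24 ± 0.20 (adjusted p = 0.00180), at −0.91 in the MLL-AF9 line, and at 0.98 ± 0.26 (adjusted p = 0.0519) with SGC0946. Parp9 read 9.55 and 9.53 in treated lines 1 and 3, 9.40, 9.93 and 9.65 in NUP98-JARID1A lines 1 to 3, 8.80 in the MLL-AF9 line, and 9.75, 9.66, 9.80 and 9.30 in untreated RH-RAS lines 1 to 4. Dtx3l read 9.50 and 9.71 in treated lines 1 and 3, 9.70, 9.95 and 9.97 in NUP98-JARID1A lines 1 to 3, 9.41 in the MLL-AF9 line, and 9.82, 9.75, 9.85 and 9.51 in untreated RH-RAS lines 1 to 4. For both genes treated and untreated readings overlapped. With SGC0946 they were at −0.24 ± 0.19 (adjusted p = 0.488) and −0.23 ± 0.14 (adjusted p = 0.356) and did not pass. In NUP98-JARID1A lines Parp9 was at 0.03 ± 0.17 (adjusted p = 0.886) and Dtx3l at 0.14 ± 0.11 (adjusted p = 0.324). The second Dtx3l probe set was at −1.08 there, and the mean of both was at −0.47 with a limma adjusted p = 0.0162.

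The last block holds Stat2, a subunit of the interferon-activated complex, Ifi35, a protein of interferon signalling, Trim30a, an inhibitor of NF-kB signalling in mouse cells, Xaf1, which promotes cell death, Ifi27l2a, and Tap1, which carries peptides to MHC class I. Of these 6, 2 rose with SGC0946 and 4 were higher in NUP98-JARID1A lines. Ifi27l2a read 10.84 and 10.83 in treated lines 1 and 3, 7.22, 8.16 and 10.54 in NUP98-JARID1A lines 1 to 3, 8.33 in the MLL-AF9 line, and 7.63, 7.90, 7.23 and 8.39 in untreated RH-RAS lines 1 to 4. It had the largest change of all 33 genes with SGC0946, 10.6-fold, but NUP98-JARID1A lines spanned 7.22 to 10.54 (SD 1.71), and at 3.40 ± 0.91 (adjusted p = 0.0520) the change did not pass. In the fit of the 6 RH-RAS arrays it did (adjusted p = 0.000552). Trim30a read 9.25 and 9.39 in treated lines 1 and 3, 8.70, 9.36 and 9.85 in NUP98-JARID1A lines 1 to 3, 8.99 in the MLL-AF9 line, and 7.62, 7.70, 7.80 and 8.06 in untreated RH-RAS lines 1 to 4. Ifi35 read 10.63 and 10.74 in treated lines 1 and 3, 10.80, 10.50 and 10.98 in NUP98-JARID1A lines 1 to 3, 10.67 in the MLL-AF9 line, and 9.96, 10.12, 9.93 and 10.28 in untreated RH-RAS lines 1 to 4. Trim30a rose with SGC0946 by 1.61 ± 0.33 (adjusted p = 0.0228), or 3.05-fold, and Ifi35 by 0.73 ± 0.16 (adjusted p = 0.0262), or 1.66-fold. Both calls were lost when blocked by line (adjusted p = 0.0688 and 0.0786). Both genes were higher in NUP98-JARID1A lines, by 1.51 ± 0.26 (adjusted p = 0.00223) and 0.68 ± 0.14 (adjusted p = 0.00517). Xaf1 read 8.13 and 8.45 in treated lines 1 and 3, 8.01, 8.69 and 9.47 in NUP98-JARID1A lines 1 to 3, 7.59 in the MLL-AF9 line, and 6.97, 7.01, 7.05 and 7.22 in untreated RH-RAS lines 1 to 4. It was higher in NUP98-JARID1A lines by 1.66 ± 0.30 (adjusted p = 0.00313) and at 1.28 ± 0.40 (adjusted p = 0.0856) with SGC0946. Tap1 read 9.22 and 9.13 in treated lines 1 and 3, 9.92, 10.26 and 9.96 in NUP98-JARID1A lines 1 to 3, 8.76 in the MLL-AF9 line, and 9.43, 9.36, 9.30 and 9.07 in untreated RH-RAS lines 1 to 4. Tap1 was higher in NUP98-JARID1A lines by 0.76 ± 0.12 (adjusted p = 0.00194), while with SGC0946 it was at −0.19 ± 0.15 (adjusted p = 0.500) and did not pass. Its other probe sets, all dimmer, were at −0.05, −0.02 and −0.06 in NUP98-JARID1A lines.

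Trim25, Mx2, Isg20, Parp9, Dtx3l and Tap1 were the 6 genes lower in both treated lines, with mean changes of −0.06 to −0.29, and none of them passed. Together with Mx1 they are the genes whose treated arrays did not all lie above the untreated ones. Of these genes Trim25, Isg20, Dtx3l and Tap1 had a promoter in the table, and in none of the 4 was there a match to that core of the response element, while 1 of them, Isg20, held the gamma-activated site as TTCTTGGAA. Ifit2, Xaf1, Oasl1, Oasl2, Cmpk2, Samhd1 and Ifi35 lacked the core too, and their treated arrays lay above all untreated ones. With only 4 genes, this cannot show whether a match goes with the change.

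The 3 NUP98-JARID1A lines were not alike in these genes. Line 3 had the highest reading of the 3 lines for 25 of the 33 genes (75.8%), where that held for 29.7% of all genes tested. The median of line 3 minus the mean of lines 1 and 2 was 0.72 over the 33 genes and −0.01 over all genes tested, and it was at least 1 for 6 genes. These were Ifi27l2a at 2.85, Oas1a at 2.38, Oasl1 at 2.04, Oas3 at 1.59, Oas2 at 1.28 and Xaf1 at 1.12. Tap1 (−0.13), Gbp3 (−0.24) and Parp9 (−0.01) ran the other way. Line 3 is 1 array, so this difference has no replicate check.

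**Figure D3:**
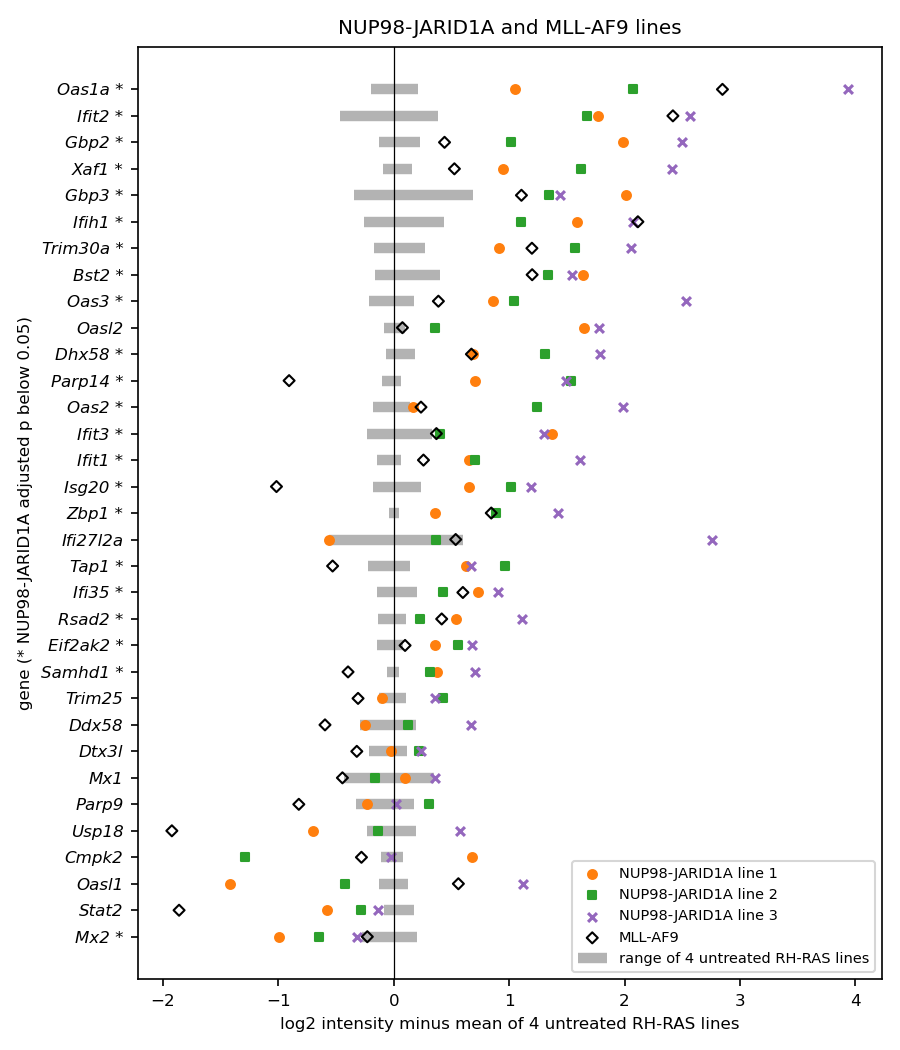
Log2 intensity of the 33 genes minus the mean of the 4 untreated RH-RAS lines, in NUP98-JARID1A lines 1 to 3 and the MLL-AF9 line, with grey bars for the range of the untreated RH-RAS lines; stars mark an adjusted p below 0.05 for NUP98-JARID1A. Crosses of line 3 lie furthest right for most genes, and the MLL-AF9 diamonds run from 2.85 for Oas1a to −1.92 for Usp18.

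The MLL-AF9 line has 1 array and was not tested. Its reading left the RH-RAS range and lay 1 log2 unit or more from the RH-RAS mean for 9 of the 33 genes, above it for 6 (18.2%) and below it for 3 (9.09%), against 7.21% and 5.78% of all genes tested. Oas1a was 7.20-fold, Ifit2 5.35-fold and Ifih1 4.33-fold higher, and Bst2, Trim30a and Gbp3 2.30-fold, 2.29-fold and 2.15-fold. Usp18 was 3.79-fold, Stat2 3.63-fold and Isg20 2.02-fold lower. Stat2 read 7.76 and 7.79 in treated lines 1 and 3, 6.88, 7.18 and 7.33 in NUP98-JARID1A lines 1 to 3, 5.60 in the MLL-AF9 line, and 7.45, 7.37, 7.63 and 7.38 in untreated RH-RAS lines 1 to 4. Its second probe set was at −1.12 in the MLL-AF9 line, against −1.86 for the one used. In NUP98-JARID1A lines it lay below all RH-RAS lines without passing the test (−0.33 ± 0.12, adjusted p = 0.0590). The median over the 33 genes was 0.26, against 0.07 over all genes tested.

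Of the interferon genes themselves, 10 of 17 listed were measured and 3 were tested. The other 7, Ifnb1 and Ifng among them, lay below the array median on all 10 arrays, and none of the 3 tested passed for SGC0946. In NUP98-JARID1A lines Ifnz was lower (−1.10 ± 0.20, adjusted p = 0.00296). Ifna9 was called higher there (0.29 ± 0.08, adjusted p = 0.0201), but it lay below the array median on 5 of the 10 arrays, all 4 untreated RH-RAS arrays among them, and the call was lost without RH-RAS line 1 or 3 or NUP98-JARID1A line 1 or 3 (adjusted p = 0.0510 to 0.0555). Of 13 tested receptors and JAK-STAT components, 2 rose with SGC0946 (15.4%, against 6.84% of all genes tested) and 11 did not pass. They were the interferon gamma receptor chain Ifngr2 (1.24 ± 0.15, adjusted p = 0.00528) and the feedback inhibitor Socs3 (1.18 ± 0.26, adjusted p = 0.0300). The type I receptor chain Ifnar2 was at 0.84 ± 0.22 (adjusted p = 0.0519) and Ifnar1 at 0.06 ± 0.13 (adjusted p = 0.843), the interferon gamma receptor chain Ifngr1 at 0.42 ± 0.21 (adjusted p = 0.251), and the kinases Jak1 and Tyk2 at −0.26 ± 0.20 (adjusted p = 0.475) and 0.22 ± 0.13 (adjusted p = 0.345), and these did not pass. In NUP98-JARID1A lines 5 were higher (38.5%) and 8 did not pass, which is near the 32.5% of all genes tested that were higher. The 5 were Il10rb at 1.31 ± 0.17 (adjusted p = 0.000665), Ifnar1 at 0.97 ± 0.10 (adjusted p = 0.000253), Tyk2 at 0.67 ± 0.11 (adjusted p = 0.00189), Ifngr2 at 0.55 ± 0.12 (adjusted p = 0.00716) and Ifngr1 at 0.46 ± 0.16 (adjusted p = 0.0432). Ifnar2 (−0.03 ± 0.18, adjusted p = 0.909) and Jak1 (−0.22 ± 0.18, adjusted p = 0.358) did not pass. The call for Ifngr1 was lost without any 1 RH-RAS array or NUP98-JARID1A line 1 or 3 (adjusted p = 0.0733 to 0.0896). With all probe sets averaged, Ifnar1 was at −0.04 (adjusted p = 0.813) and Tyk2 at 0.21 (adjusted p = 0.0906).

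Upstream of interferon, 3 of 13 tested genes of sensing rose with SGC0946, the Toll-like receptor chaperone Unc93b1 (2.08 ± 0.32, adjusted p = 0.0105) and the adaptors Myd88 (1.17 ± 0.13, adjusted p = 0.00380) and Ticam1 (0.52 ± 0.11, adjusted p = 0.0238), and 10 did not pass, Tlr7 among them at 2.24 ± 0.62 (adjusted p = 0.0584). The share risen was 23.1%, against 6.84% of all genes tested. Blocked by line, 2 rose and Ticam1 no longer passed (adjusted p = 0.0596). In NUP98-JARID1A lines 7 were higher (53.8%), 3 lower and 3 did not pass, against 32.5% higher and 18.5% lower of all genes tested. The kinase Ikbke was at 2.60 ± 0.24 (adjusted p = 0.000159). Those lower were the DNA sensor Aim2 (−0.94 ± 0.10, adjusted p = 0.000284), the ubiquitin ligase Traf6 (−0.42 ± 0.08, adjusted p = 0.00439) and Sting1 (−0.34 ± 0.10, adjusted p = 0.0278). Traf6 did not pass with all probe sets averaged (adjusted p = 0.122), nor did Sting1 without RH-RAS line 1, 2 or 3 or NUP98-JARID1A line 3 (adjusted p = 0.0658 to 0.0860). In the MLL-AF9 line the adaptor Sting1 was at −2.08 relative to the RH-RAS mean, with 9.37 against 11.25 to 11.56 in untreated RH-RAS lines. Of 34 other interferon-induced genes tested, 9 rose with SGC0946 (26.5%), 1 fell and 24 did not pass. Risen and fallen were 16 and 2 in the fit of the 6 RH-RAS arrays and 6 and 0 with the line as a block. Slfn2 rose by 2.67 ± 0.45 (adjusted p = 0.0132), the ADP-ribosylating enzyme Parp12 by 2.21 ± 0.25 (adjusted p = 0.00448) and Tor3a by 1.73 ± 0.37 (adjusted p = 0.0262), and the one that fell, the GTPase Ifi47, did so by 0.44 ± 0.11 (adjusted p = 0.0370). Blocked by line, Slfn2 (adjusted p = 0.0526) and Ifi47 (adjusted p = 0.101) no longer passed. Ifi204, an interferon-inducible DNA-binding protein, was not tested, and its difference was 3.04. In NUP98-JARID1A lines 21 of the 34 were higher (61.8%), none lower and 13 did not pass, with Slfn4 at 4.04 ± 0.56 (adjusted p = 0.000920) and the lectin Lgals9 at 2.31 ± 0.12 (adjusted p = 2.02e-05).

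Of 12 tested genes of MHC class I presentation, 2 rose with SGC0946 (16.7%), 2 fell and 8 did not pass. Of all genes tested, 6.84% rose and 5.12% fell. The peptide transporter chain Tap2 fell by 0.82 ± 0.10 (adjusted p = 0.00569) and Nlrc5, the transactivator of MHC class I genes, by 1.48 ± 0.34 (adjusted p = 0.0330), while the peptide-loading chaperone Tapbp rose by 0.61 ± 0.12 (adjusted p = 0.0220) and the immunoproteasome subunit Psmb10 by 0.52 ± 0.11 (adjusted p = 0.0253). Blocked by line, 2 rose and 1 fell, and Nlrc5 no longer passed (adjusted p = 0.0772). In NUP98-JARID1A lines 8 were higher (66.7%, against 32.5% of all genes tested) and 4 did not pass, with Nlrc5 at 2.05 ± 0.29 (adjusted p = 0.000937) and the class I heavy chains H2-D1 and H2-K1 at 1.27 ± 0.20 (adjusted p = 0.00176) and 1.16 ± 0.18 (adjusted p = 0.00162). H2-D1 was at 0.04 there with all its probe sets averaged (adjusted p = 0.949). Nlrc5 read 5.05 and 5.18 in treated lines 1 and 3, 8.85, 7.82 and 8.62 in NUP98-JARID1A lines 1 to 3, 6.12 in the MLL-AF9 line, and 6.68, 6.48, 6.50 and 5.85 in untreated RH-RAS lines 1 to 4. Its readings were thus the lowest in treated lines and the highest in NUP98-JARID1A lines. Each SGC0946 call named here for receptors, sensing, other interferon-induced genes and MHC class I was lost without at least 1 of the 4 arrays compared.

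Markers of monocytes and macrophages were read on the same arrays. With SGC0946 10 of 11 rose, where 6.84% of all genes tested did. Most of these calls were lost without any 1 of the 4 arrays compared. In NUP98-JARID1A lines 7 were higher, 1 was lower and 3 did not pass, where 32.5% and 18.5% of all genes were called. In the MLL-AF9 line 5 left the RH-RAS range at 1 log2 unit or more above the mean and 2 below it, against 7.21% and 5.78%. The summed linear intensity of the 11 markers was 43212 and 45691 in treated lines 1 and 3. In untreated lines 1 to 4 it was 7799, 8047, 7938 and 15886. It was 45900, 39658 and 60176 in NUP98-JARID1A lines 1 to 3, where line 3 was the highest for 10 of the 11 markers, and 27323 in the MLL-AF9 line. The number of the 11 markers below the array median was 0 on both treated arrays, 1, 1 and 0 in NUP98-JARID1A lines 1 to 3, 1 in the MLL-AF9 line and 3, 3, 3 and 2 in untreated lines 1 to 4. In untreated line 4, 7 of the 11 markers were at least 1 on the log2 scale above lines 1 to 3, against 0.867% of all genes tested, and none of the 33 interferon-stimulated genes was. Line 4 minus lines 1 to 3 had a median of 0.05 over the 33 genes and was above 0 for each of the 6 genes that rose with SGC0946, at 0.91 for Gbp3, 0.59 for Ifih1, 0.53 for Bst2, 0.36 for Trim30a, 0.27 for Ifi35 and 0.05 for Samhd1, and it was 0.80 for Ifi27l2a. The lowest were Ifit2 at −0.62, Parp9 at −0.44 and Ddx58 at −0.39. Untreated lines 1 and 3 are in the baseline of both differences, so the sign in those 6 genes is not independent of their choice. Over all genes tested, line 4 correlated with the treated arrays at r = 0.978 and 0.976, against 0.955 to 0.959 for lines 1 to 3. The summed linear intensity of the 33 genes, in which bright genes weigh most, was 9990 in line 4, against 9920 to 10191 in lines 1 to 3. That sum was 15248 and 15429 in treated lines 1 and 3, 13735, 15761 and 21362 in NUP98-JARID1A lines 1 to 3 and 11677 in the MLL-AF9 line. The part of monocyte-like cells in these results was not tested.

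**Figure D4:**
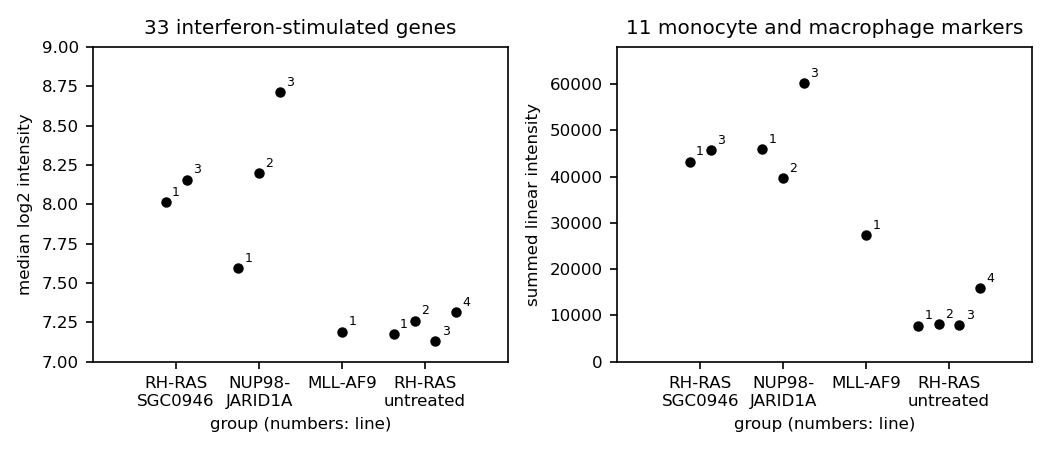
Left, the median log2 intensity of the 33 genes on each array; right, the summed linear intensity of 11 monocyte and macrophage markers; numbers name the line. Treated arrays (8.02 and 8.16) and NUP98-JARID1A arrays (7.60, 8.20 and 8.71) lie above the untreated RH-RAS arrays (7.13 to 7.32) on the left, where the MLL-AF9 array at 7.19 does not.

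Of all genes tested, 6.84% rose and 5.12% fell with SGC0946, and in NUP98-JARID1A lines 32.5% were higher and 18.5% lower. With SGC0946, 5 of 7 stem and progenitor markers fell and 2 did not pass, and the summed intensity was 12496 and 11742 in treated lines 1 and 3, against 27660 to 31348 in the 4 untreated lines. In NUP98-JARID1A lines 2 of the 7 were higher (28.6%, near the share of all genes), 1 was lower and 4 did not pass, and the sum was 26488, 30918 and 26113. Kit, the receptor for stem cell factor, read 8.71 and 8.56 in treated lines 1 and 3, against 10.52, 10.40, 10.71 and 9.91 in untreated lines 1 to 4. All 7 of these listed markers lay above the array median on every untreated array, and all 7 read lower on both treated arrays than on the 4 untreated ones. The SGC0946 calls for Kit, Cd34, Meis1 and Myb were lost without treated line 3. Of 8 neutrophil markers 1 rose with SGC0946, with sums of 398 and 411 in treated lines, against 224 to 249 in the untreated ones. All 8 were higher in NUP98-JARID1A lines, where the sum was 17661 to 83493. However, all 8 lay below the array median on each of the 4 untreated RH-RAS arrays, and 7 of the 8 did on each treated array. Most of them thus entered the test through the NUP98-JARID1A and MLL-AF9 arrays, where they were high, and the RH-RAS sums lie near background. Of 11 tested dendritic cell markers 2 rose with SGC0946, Cd83 (3.53 ± 0.45, adjusted p = 0.00610) and Cd74 (1.54 ± 0.20, adjusted p = 0.00595), and 9 did not pass. In NUP98-JARID1A lines 8 of the 11 were lower, none was higher and 3 did not pass. The dendritic cell sum was 9240 and 8755 in treated lines and 3382, 5685 and 3319 in NUP98-JARID1A lines 1 to 3, against 13330 to 16425 in the untreated RH-RAS lines. Of 9 T and NK cell markers 2 fell with SGC0946, Gzma (−5.25 ± 0.68, adjusted p = 0.00610) and Cd3g (−4.19 ± 0.66, adjusted p = 0.0110), and 2 were lower in NUP98-JARID1A lines. Their sum was 669 and 650 in treated lines and 4014, 3341 and 957 in NUP98-JARID1A lines 1 to 3, against 1294 to 2956 in the untreated ones. The SGC0946 calls for Gzma, Cd3g and Cd83 were lost without any 1 of the 4 arrays compared. That for Cd74 was lost without either treated array or untreated line 3. The part of these cell types in the results was not tested either.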

How the data were processed

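RNA of 10 cultures was measured on Affymetrix arrays of the mouse genome. The values deposited by the authors are log2 intensities of 45101 probe sets, made with RMA per the submitters' processing notes, whose version is not given in the sources used here. Array medians were 5.72 to 5.82, and precision is limited by how few arrays each group has. Of the probe sets, 34958 named 1 gene symbol in the platform annotation, 932 named several and were left out, and 9211 had no entry. Each gene was represented by the probe set with the highest mean, and genes above the array median on at least 2 arrays were tested.

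Tests were run in limma 3.58.1 (R 4.3.3), two-sided, with Benjamini-Hochberg adjustment over 11993 genes. SGC0946-treated lines 1 and 3 were compared with the same lines untreated in a fit of all 10 arrays, and NUP98-JARID1A with untreated RH-RAS in a separate fit that left out the 2 treated arrays. For SGC0946 the pairing comes from the labels, since the same lines were treated. Over the genes tested, the difference of line 1 and line 3 had r = 0.29 between treated and untreated arrays. The fits were checked on simulated data. Alternatives were no filter, the mean of all probe sets, subtraction of array medians, a trended prior, other sets of arrays, the line as a block and leaving out each array.

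The genes, their roles and the other lists were chosen with earlier results of these data known. All 35 genes are named by role. Values on every array are given for genes called in either fit, for the 8 with the largest difference in each comparison and for those whose fits differ in direction. Of other lists up to 4 with the largest difference and the interferon receptor chains, Jak1 and Tyk2 were named, and a count of 5 or fewer outside that rule was named after its values were seen. The lists were interferon ligands, receptors and JAK-STAT signalling, sensing upstream of interferon, other interferon-induced genes, MHC class I presentation, and markers of monocytes and macrophages, dendritic cells, neutrophils, T and NK cells, and stem and progenitor cells. Motifs were sought on both strands in RefSeq promoters of GRCm38.p6.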

Additional observations from a re-analysis of the deposited data

Results flagged for a closer look

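In 3 of the 33 interferon-stimulated genes, 1 untreated RH-RAS line stood apart from the other 3 by Dixon's criterion, which chance meets in about 1 of 20 groups, and 7.14% of all genes tested met it. Dhx58 read 7.09 in line 1, against 6.84, 6.85 and 6.86 in lines 2 to 4, a gap of 0.952 of the range. Ifit1 read 4.73 in line 2, against 4.92, 4.94 and 4.92 in the others, a gap of 0.887 of the range, all below the array median. Bst2 read 9.03 in line 4, against 8.48, 8.54 and 8.50 in lines 1 to 3, a gap of 0.893 of the range.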

How the results depend on the processing

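The count of interferon-stimulated genes that rose with SGC0946 was 6, and it was 11 after subtraction of array medians, 14 with all 4 untreated lines as control, where Gbp3 no longer passed, 21 in the fit of the 6 RH-RAS arrays and 3 with the line as a block. Without 1 array it was 0 to 6, and 0 when the array left out was one of the 4 compared, which leaves a group of 1 array that is assumed to vary like the others. The cause was not tested. By limma none fell under any of these settings, and at an unadjusted p below 0.05 the count was 0, or 1 in the fit of the 6 RH-RAS arrays. The change of Trim25 spanned −0.15 to 0.0225 over these leave-outs. With the mean of all probe sets 9 of 31 tested genes rose with SGC0946 (29%), where 7.01% of all genes did. With a trended prior 8 of 32 rose (25%), where 7.34% of all genes did, and limma called none as fallen in either. Between NUP98-JARID1A and RH-RAS, 19 to 22 genes were higher under every alternative run, and the count of lower ones was 2 with the mean of all probe sets and 0 to 3 without 1 array, with 0 by limma without untreated line 1 or 2 (1 and 2 at an unadjusted p below 0.05) and 3 without NUP98-JARID1A line 3, which added Oasl1 and Stat2. Genes that passed no test with the main settings changed sign when 1 array was left out, with differences of −0.0632 to 0.39 for Ddx58, −0.92 to 0.35 for Oasl1, −0.42 to 0.22 for Usp18, −0.0452 to 0.23 for Mx1, −0.65 to 0.33 for Cmpk2, −0.10 to 0.16 for Parp9 and −0.10 to 1.56 for Ifi27l2a. Dtx3l was at −0.47 with the mean of its probe sets. Line numbers of the NUP98-JARID1A and RH-RAS groups are shared as numbers only, and of the NUP98-JARID1A lines line 3 alone correlated best with its own number (r = 0.07). With the number as a replicate block, 20 genes were higher and 1 was lower, Oas2 no longer passed and Parp9 was at −0.0774. The MLL-AF9 counts were 5 or 6 above and 2 or 3 below. Readings below the array median, as for Oasl2, Ifit1 and Gbp2 on most arrays and Oas3 on the untreated RH-RAS arrays, lie near background and limit what can be said of their size.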
